A study of Ambystoma mexicanum with 61 samples.

Results

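Aquaporins are membrane proteins that form pores for water, and some of them also pass glycerol, urea or other small solutes. In amphibians they serve the organs that hold or take up water: in frogs, vasotocin moves aquaporins to the surface of ventral skin and bladder cells, while kidney tubules recover water from the urine. In mammals AQP4 is the water channel of astrocytes, AQP8 is found in digestive epithelium and liver, and AQP9 is the glycerol channel of hepatocytes. AQP11 lies mostly in the endoplasmic reticulum, in kidney, liver and intestine among other organs. The axolotl keeps its gills and aquatic larval form as an adult, a state called neoteny, and can be brought out of it with thyroid hormone.

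The aquaporin water channels were taken as the gene models whose symbol begins with AQP and a number and that had at least 100 counts over all libraries. Of 23251 gene models, 5 carried such a symbol and 4 were members: AQP4, AQP8, AQP9 and AQP11. A second model named AQP4 had 90 counts over all 61 libraries, at most 13 in any of them, and was left out by the rule. The levels are bulk RNA-seq counts of polyA RNA from d/d strain axolotls aged 1 year. They cover 27 libraries of 15 tissues from metamorphosed animals, which had been given thyroxine (T4), and 34 libraries of 17 tissues from neotenic animals, which had not. The study took its bulk RNA from 2 animals of each state, so libraries with the same replicate number may share an animal, and p-values then measure the spread between these libraries. All groups had 2 libraries except metamorphosed brain, fore limb and heart, which had 1, and gill and gonad were measured only in neotenic animals.

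In the AmexG v3.0.0 assembly, AQP4 (AMEXTC_0340000036200_AQP4) lay on the minus strand of contig AMEXG_0030010542 from 73988 to 181248, with 8 exons and 4163 exonic bases. AQP8 (AMEXTC_0340000125367_AQP8) lay on the minus strand of AMEXG_0030000068 from 1679150 to 1717467, with 6 exons and 3896 exonic bases. AQP9 (AMEXTC_0340000047547_AQP9) lay on the minus strand of AMEXG_0030005262 from 4249492 to 4644198, with 6 exons and 2539 exonic bases. AQP11 (AMEXTC_0340000056542_AQP11) lay on the plus strand of AMEXG_0030000666 from 9625707 to 10024853, with 5 exons and 3524 exonic bases. Each model stood alone on its stretch, with no other gene model inside it or across its exons. Summed counts were 37051 for AQP4, 32426 for AQP8, 18180 for AQP9 and 10558 for AQP11, and all 4 passed the low-count filter of both models fitted here. No model named AQP1, AQP2, AQP3 or AQP5 was among them, so the channels best known from mammalian kidney are not described by these symbols.

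Library totals were 69278 to 27389476 counts in metamorphosed tissues and 2888466 to 16895107 in neotenic tissues. Levels below are CPM, read counts relative to the library size scaled by TMM. In metamorphosed skin replicate 1, the shallowest library, 3 counts corresponded to 24.2 CPM, against 0.126 to 1.58 CPM in the other 60 libraries. Low levels in that library were therefore not detectable. Among neotenic libraries, the second ones of stomach and tail went against their labels. GKN1, the stomach gland marker, stood at 4.89 CPM in the library labelled stomach 2 and at 18360 CPM in the library labelled tail 2, against 12130 CPM in neotenic stomach 1 and 1.75 CPM in neotenic tail 1. The summed level of 6 skeletal muscle markers was 3672 CPM in the library labelled stomach 2 and 19.2 CPM in the library labelled tail 2. Aquaporin tests whose call changed without these libraries are given both ways, while levels and their order are given with all libraries.

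AQP4 led in lung and AQP9 in liver, while AQP8 and AQP11 both had their highest neotenic mean in intestine. AQP4 was highest in lung in both states, followed by brain, stomach and eye in metamorphosed animals and by eye and brain in neotenic ones. AQP8 was highest in intestine, stomach, lung and liver. AQP9 was almost confined to liver, which held 92.7% of the summed metamorphosed tissue means and 89.0% of the neotenic ones. AQP11 was low in most tissues, with its highest neotenic mean in intestine at 37.3 CPM. Its highest metamorphosed levels were in fore limb, at 131.6 CPM in 1 library, and in skin, at a mean of 76.6 CPM. Scaled per kilobase of exon, the level of AQP9 in liver was 205 CPM per kb in metamorphosed and 187 in neotenic animals, that of AQP4 in lung was 113 and 172, that of AQP8 in intestine 41.6 and 131, and that of AQP11 in intestine 13.8 and 10.6. In bulk tissue, more cells of one type and more RNA per cell cannot be told apart.

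**Figure D1:**
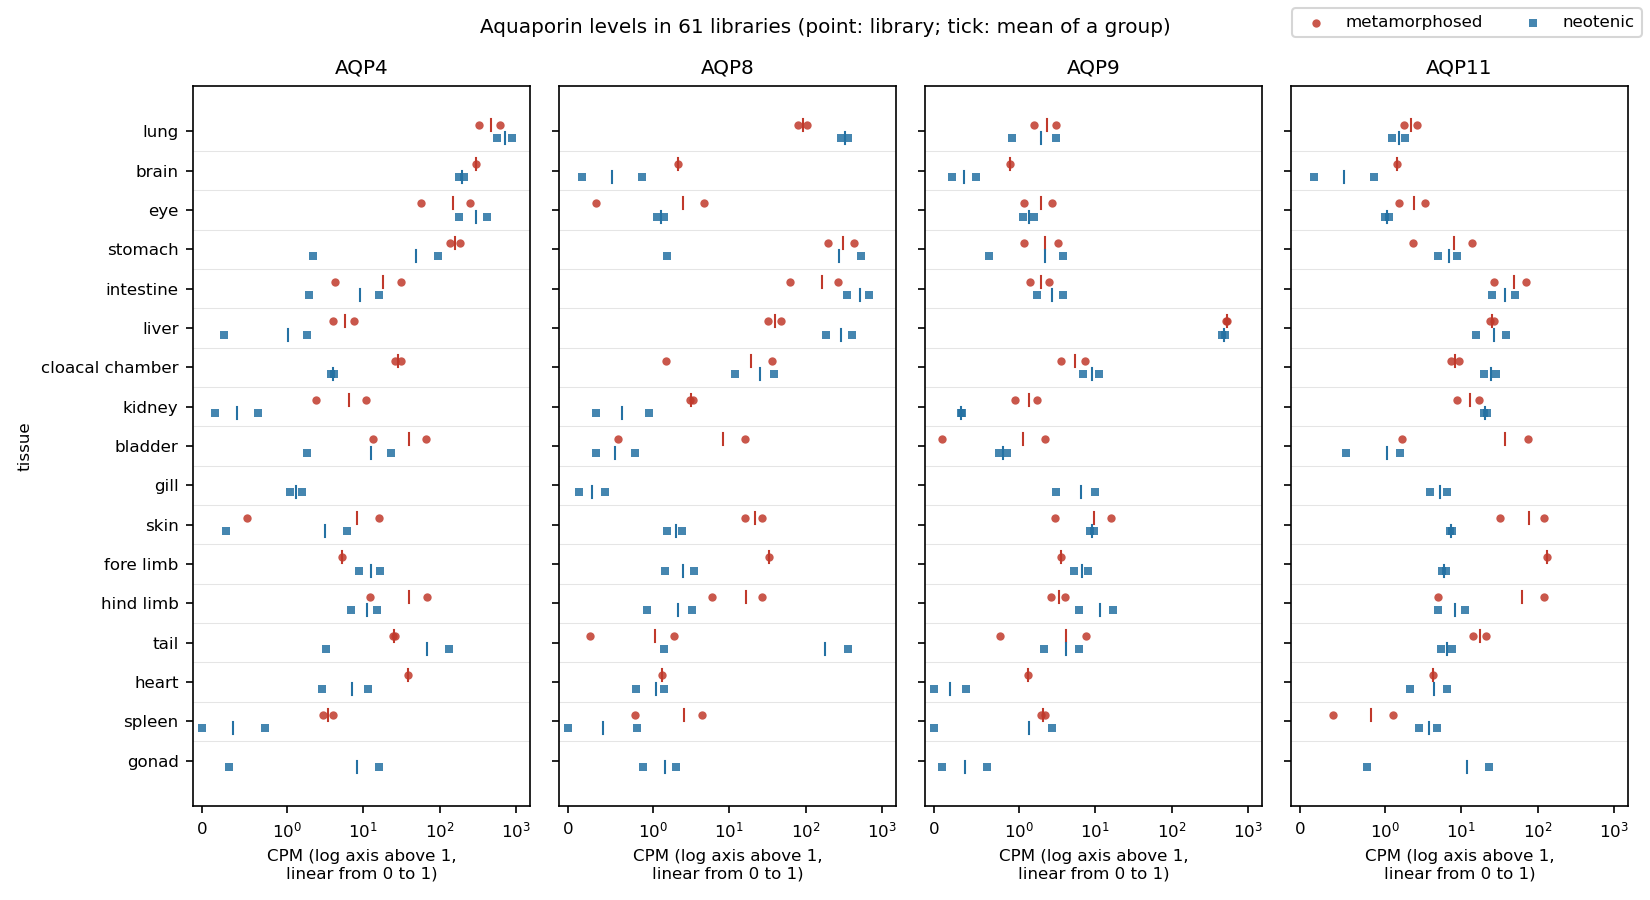
Level of each aquaporin in every library, as CPM on a log axis that is linear below 1, with tissues down the page, metamorphosed libraries as circles above neotenic libraries as squares, and a tick at the mean of each group. AQP9 stands at 458 to 534 CPM in the 4 liver libraries and at 16.9 CPM or less in the other 57 libraries, while AQP11 is spread most widely among metamorphosed libraries of skin, limbs and bladder.

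AQP4 stood at 618 and 325 CPM in metamorphosed lung, against 871 and 565 CPM in neotenic lung. The states overlapped there, and no other group overlapped either of them except neotenic eye, which reached 416 CPM in 1 library. Brain had 300 CPM in the single metamorphosed library, against 206 and 180 CPM in neotenic libraries. Eye had 246 and 56.3 CPM in metamorphosed libraries, against 176 and 416 CPM in neotenic libraries, so that eye replicates of 1 state differed more than the states did. Metamorphosed stomach had 184 and 135 CPM, against 95.2 CPM in neotenic stomach 1 and 2.23 CPM in the library labelled neotenic stomach 2, while the library labelled neotenic tail 2 had 131 CPM. Set beside neotenic tail 1 at 3.27 CPM, the library labelled tail 2 was close to the stomach libraries in AQP4 as it was in GKN1.

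Among the organs of water exchange, AQP4 was scarce in neotenic gill, kidney and skin. Neotenic bladder had a mean of 12.5 CPM, above the median neotenic tissue mean of 9.15 CPM. Neotenic gill had 1.09 and 1.58 CPM, neotenic kidney 0.663 and 0.159 CPM (4 and 1 counts) and neotenic skin 6.14 and 0.283 CPM. Bladder had 66.5 and 13.4 CPM in metamorphosed libraries, against 1.86 and 23.2 CPM in neotenic ones, and these overlapped. The remaining neotenic tissues had means from 0.372 CPM in spleen to 12.6 CPM in fore limb, and the remaining metamorphosed tissues means from 3.49 CPM in spleen to 39.8 CPM in hind limb. In the mammalian kidney AQP4 is a channel of collecting duct cells. Metamorphosed axolotl kidneys held its RNA at 2.38 and 10.7 CPM (5 and 49 counts), a level of the whole organ that does not show which cells held it.

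AQP8 stood at 261 and 63.0 CPM in metamorphosed intestine, against 675 and 342 CPM in neotenic intestine. In lung it had 105 and 78.7 CPM in metamorphosed libraries, against 292 and 355 CPM in neotenic libraries, and in liver 47.6 and 32.5 CPM, against 397 and 184 CPM. In these 3 tissues every metamorphosed library lay below every neotenic one. Of all gene and tissue pairs in the 12 tissues with 2 libraries per state, 34.9% did not overlap in one direction or the other. By edgeR's quasi-likelihood test the unadjusted p for AQP8 was 0.275 in intestine, 0.234 in lung and 0.075 in liver. Metamorphosed stomach had 197 and 425 CPM, against 535 CPM in neotenic stomach 1, 1.54 CPM in the library labelled stomach 2 and 359 CPM in the library labelled tail 2. The cloacal chamber, where gut and urinary tract open together, had 36.6 and 1.48 CPM in metamorphosed and 39.0 and 12.02 CPM in neotenic animals. Outside these tissues and the library labelled tail 2, neotenic AQP8 means were 2.48 CPM or less, with 0.437 and 0.132 CPM in gill, 0.328 and 0.787 CPM in bladder and 0.331 and 0.952 CPM in kidney.

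AQP9 stood at 508 and 534 CPM in metamorphosed liver, against 458 and 492 CPM in neotenic liver. Liver levels depend on the scaling: by the library total alone, the metamorphosed mean was 264 CPM in place of 521 CPM. After liver came a group of skin-covered and gut-end tissues: neotenic hind limb had 16.9 and 6.22 CPM, neotenic skin 8.66 and 9.70 CPM, neotenic cloacal chamber 11.1 and 6.97 CPM, neotenic fore limb 8.04 and 5.23 CPM and neotenic gill 3.06 and 9.89 CPM. Those groups overlapped their neighbours in the order of levels. In neotenic brain, heart and kidney AQP9 was at or under 3 counts in each library.

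AQP11 stood at 26.4 and 71.1 CPM in metamorphosed intestine, against 24.9 and 49.8 CPM in neotenic intestine. Liver had 26.7 and 23.8 CPM in metamorphosed and 37.9 and 15.7 CPM in neotenic libraries, and kidney 17.2 and 8.76 CPM in metamorphosed and 19.6 and 21.6 CPM in neotenic libraries. The cloacal chamber had 7.33 and 9.38 CPM in metamorphosed animals, below 28.7 and 20.1 CPM in neotenic ones. Intestine, liver and kidney are also among the sites where AQP11 is known in mammals. Neotenic skin was even, at 7.17 and 7.54 CPM, gill had 3.94 and 6.53 CPM, and neotenic bladder only 0.546 and 1.58 CPM.

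Each neotenic tissue was next set against the mean of the other 16 on the log scale, by edgeR's quasi-likelihood test with Benjamini-Hochberg adjustment over 18982 genes. Gill, skin, bladder, kidney, brain and stomach were the tissues planned for this test, and the other 11 were added after the levels had been seen. In gill no aquaporin of 4 passed (10.7% of all genes did). An unadjusted p below 0.05 was reached there by 2, AQP8 at -4.70 ± 1.78 and AQP9 at 1.44 ± 0.57, and by 21.3% of all genes. DESeq2 called 2 in gill, AQP8 and AQP4, both lower, and 12.2% of all genes. In bladder none passed either (background 6.87%). At an unadjusted p below 0.05 there were 3, all at lower levels in bladder, against 17.4% of all genes. DESeq2 called 2 in bladder, with 7.48% of all genes. Here AQP11 had a log2 fold change of -2.54 ± 0.83 (SE) and an adjusted p of 0.071.

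In skin 1 of 4 passed (background 6.99%): AQP9 was higher, with a log2 fold change of 1.88 ± 0.55 and an adjusted p of 0.0383 by edgeR. The fold change was 2.01 without skin 1 (adjusted p of 0.247) and 1.74 without skin 2 (0.314), so its size changed little while the call was lost, and DESeq2 gave 0.0657. In kidney 1 of 4 passed (background 11.6%): AQP11 was higher, by 1.94 ± 0.53 with an adjusted p of 0.0168 by edgeR, and the fold change was 2.00 without kidney 1 (0.141) and 1.87 without kidney 2 (0.220). AQP4 had a difference of -4.98 ± 1.95 in kidney and missed the threshold, with an adjusted p of 0.112. DESeq2 called all 4 in kidney, AQP11 as higher and the others as lower, and 13.8% of all genes.

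Without the libraries labelled stomach 2 and tail 2, AQP8 passed as lower in 8 of 17 neotenic tissues: gill (adjusted p of 0.00115), bladder (0.0086), kidney (0.0122), brain, eye, gonad, heart and spleen. It then also passed as higher in cloacal chamber, by 2.52 (1.98e-04). With all libraries it passed in none of these 9. The comparison is with a mean of logs that the tissues rich in AQP8 raise, so lower does not mean below most tissues. Gonad had a mean of 1.45 CPM and eye 1.27 CPM. The median of the other neotenic libraries, all of them kept, was 1.43 and 1.49 CPM. Counts of AQP8 were 4 and 2 in gill, 3 and 10 in bladder, 2 and 6 in kidney, 4 and 1 in brain and 0 and 6 in spleen. Without the libraries labelled stomach 2 and tail 2, AQP9 also passed as lower in kidney (0.0478), on 2 counts in each library. AQP4 did so in spleen (0.0211), on 4 and 0 counts. In that fit 12.9% of all genes passed in gill, 9.04% in bladder and 12.6% in kidney. For the other tissues named here, the shares with all libraries were 39.6% in brain, 24.0% in eye, 30.0% in gonad, 13.6% in heart, 31.4% in spleen and 13.6% in cloacal chamber.

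In brain 3 of 4 passed, where 39.6% of all genes did. AQP4 was higher by 4.44 ± 0.77, with an adjusted p of 7.52e-05, and AQP11 was lower, at -3.71 ± 0.99 with an adjusted p of 0.00492. AQP9 passed as lower with an adjusted p of 0.0332, on 1 and 3 counts. Without brain 2, AQP11 had an adjusted p of 0.116, and AQP9 lost its call without either brain library. In stomach 1 of 4 passed (background 5.33%): AQP8 was higher by 5.78 ± 0.68, with an adjusted p of 1.08e-05. Without neotenic stomach 1 the difference was -1.65, and without the libraries labelled stomach 2 and tail 2 it was 7.21, with AQP4 then also passing as higher in stomach by 3.56 (adjusted p of 0.0182, background 4.33%). In tail AQP8 passed as higher by 5.15 ± 0.70 (1 of 4, background 5.91%), and this was -1.75, short of the threshold, without the same libraries.

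Among the added tissues, lung had 2 of 4 called (background 11.7%), AQP4 higher by 6.46 ± 0.70 (adjusted p of 5.01e-07) and AQP8 higher by 6.07 ± 0.67 (adjusted p of 7.52e-07). Both neotenic lung libraries were above every other neotenic library for AQP4. Liver had 3 called (background 16.9%): AQP9 higher by 7.96 ± 0.39 (adjusted p of 2.16e-13), AQP8 by 5.89 ± 0.68 and AQP11 by 2.37 ± 0.50, the last with an adjusted p of 0.274 without liver 1. Intestine had 2 called (background 15.7%), AQP8 higher by 6.72 ± 0.66 and AQP11 by 2.87 ± 0.48, the second with an adjusted p of 0.0536 without intestine 2. Eye had 2 called (background 24.0%), AQP4 higher by 5.17 ± 0.73 and AQP11 at -2.49 ± 0.86, which lost the call without either eye library. The cloacal chamber had 2 called (background 13.6%), AQP11 higher by 2.20 ± 0.51 and AQP9 by 1.87 ± 0.57. AQP9 lost its call without either library and AQP11 without cloacal chamber 1 (adjusted p of 0.1499). Hind limb had 1, AQP9 higher by 2.24 ± 0.53 (background 9.39%), which lost the call without hind limb 1 (adjusted p of 0.581).

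Gonad and heart had 1 each (backgrounds 30.0% and 13.6%), AQP9 as lower, and each lost the call without replicate 2 (adjusted p of 0.366 and 0.277). Fore limb and spleen had none (backgrounds 7.79% and 31.4%). At an unadjusted p below 0.05 they had 1 and 2, against 17.7% and 40.9% of all genes.

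**Figure D2:**
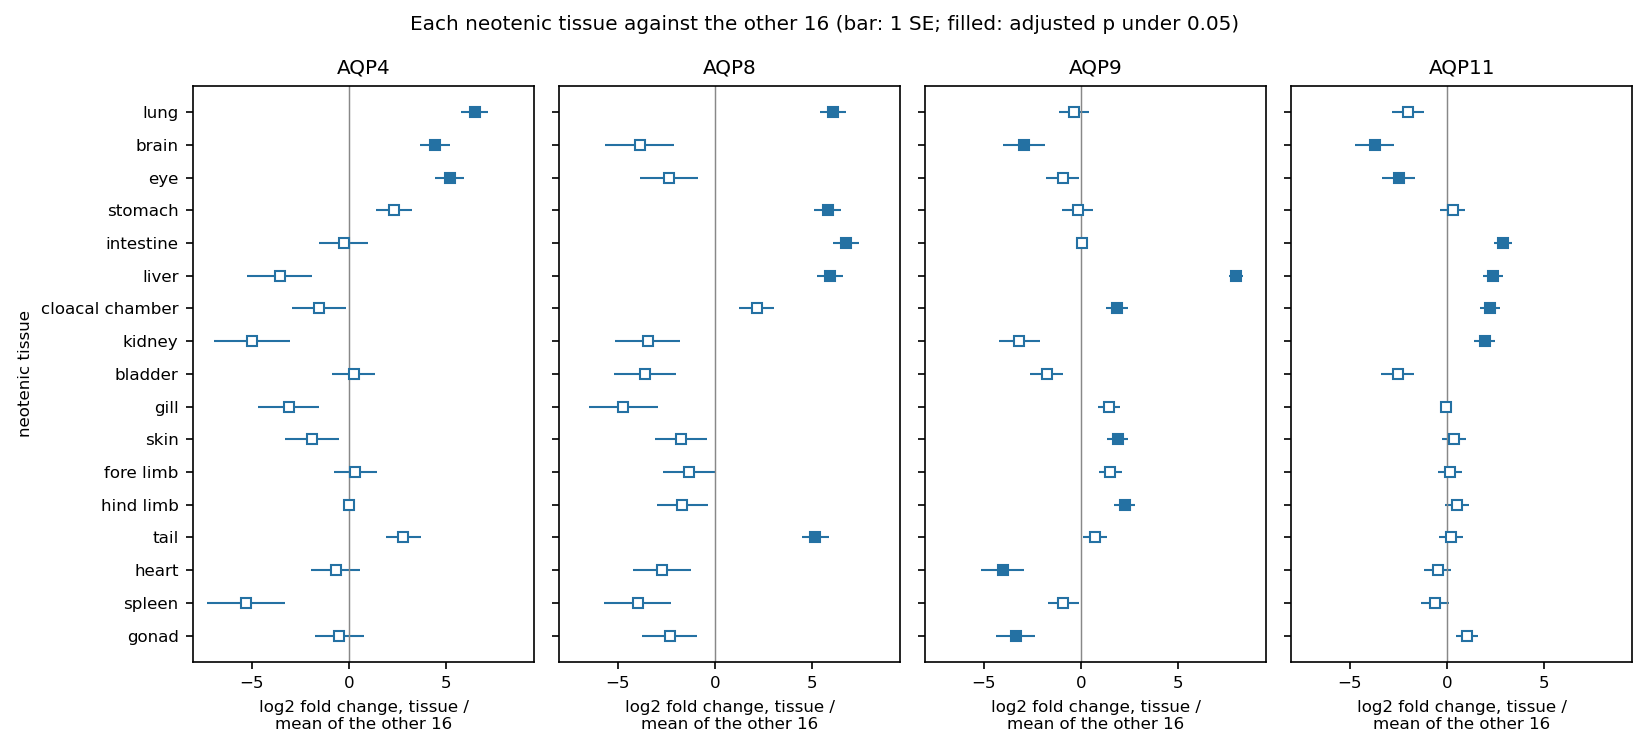
Log2 fold change of each aquaporin in each neotenic tissue against the mean of the other 16, with bars of 1 SE (none where the difference was under 0.1) and filled squares where the edgeR adjusted p was below 0.05. AQP4 has filled squares to the right in lung, brain and eye, AQP8 in lung, stomach, intestine, liver and tail, and AQP9 farthest right in liver at 7.96, while gill and bladder have no filled square. The fitted values of AQP9 in brain, heart and kidney rest on at most 3 counts in each of those libraries.

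Metamorphosed and neotenic animals were compared within the 12 tissues that had 2 libraries per state. None of the 48 member-by-tissue differences passed edgeR's quasi-likelihood test after adjustment over 20216 genes, and 7 had an unadjusted p below 0.05. By tissue, the share of all genes at that unadjusted p ran from 2.14% in cloacal chamber to 23% in skin. DESeq2 called 3 of the 48, and 2.80% of all its gene and tissue pairs. Of the 48, 30 were higher and 18 lower in metamorphosed tissue. The states did not overlap in 21 of 48, against 34.9% of all gene and tissue pairs. Leaving out stomach and tail, where the doubted libraries stand, 25 of 40 were higher and 15 lower, and 19 did not overlap (background 35.5%). Few genes of any kind passed in these tissues: 4.89% in skin, 0.00495% in bladder, 0% in kidney, 0.490% in spleen, 0.0198% in liver, 0.599% in hind limb, 0.717% in tail and 0% in cloacal chamber, lung, intestine, eye and stomach. With so few calls, 0 of 4 is near the background in every tissue.

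**Figure D3:**
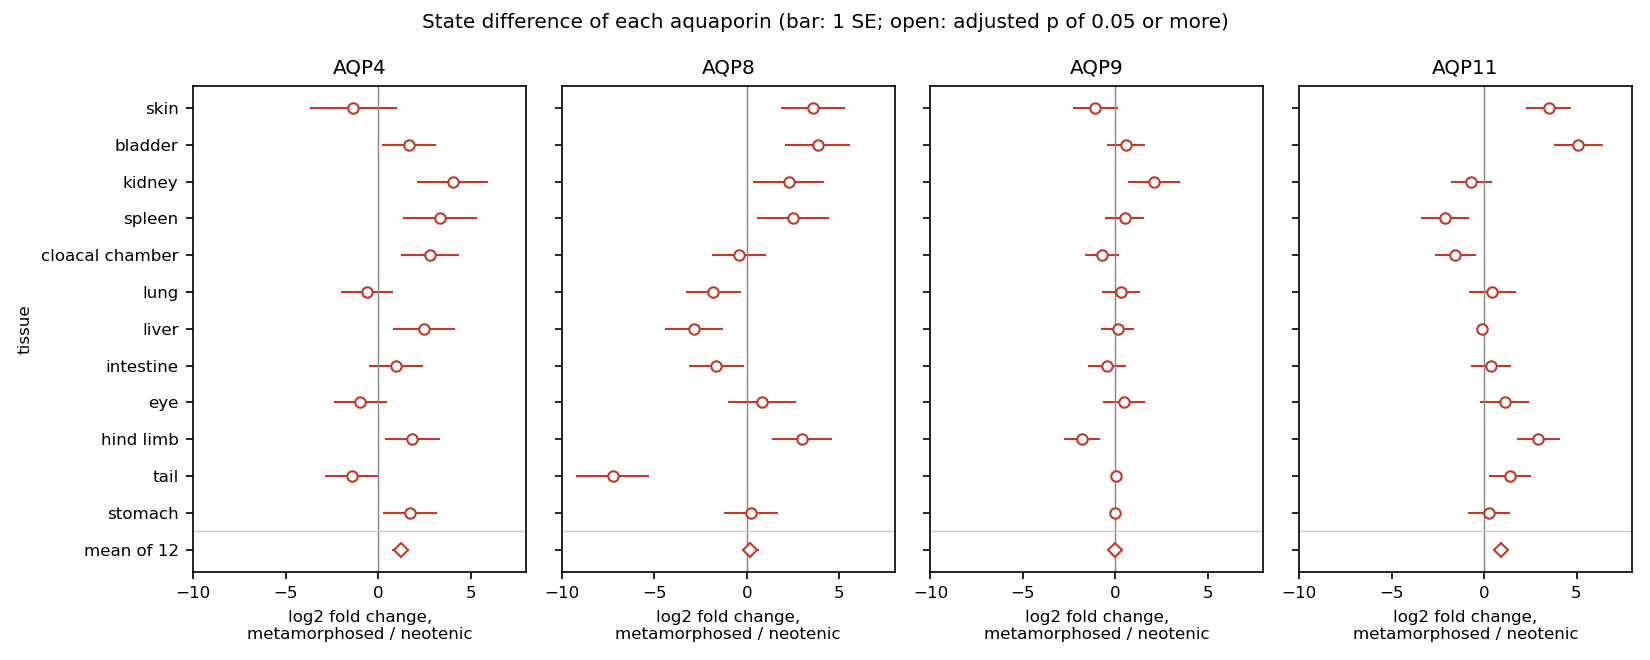
Log2 fold change of each aquaporin between metamorphosed and neotenic libraries in 12 tissues and their mean, with bars of 1 SE (none where the difference was under 0.1) and open symbols where the edgeR adjusted p was 0.05 or more. Every symbol is open, and those farthest from 0 are AQP8 in tail at -7.25 and AQP11 in bladder at 5.10.

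Skin is where metamorphosis replaces the larval epithelium with a keratinised one. AQP11 had 32.2 and 121 CPM in metamorphosed skin (4 and 906 counts), against 7.17 and 7.54 CPM in neotenic skin, a log2 fold change of 3.50 ± 1.21 with an adjusted p of 0.0777 by edgeR. The states did not overlap. DESeq2 gave 3.59 with an adjusted p of 0.0156, a fit to the skin libraries alone, where 15.9% of all genes passed, gave 3.65 with 0.00356, and without metamorphosed skin 2 the difference was 2.13 with 0.915. AQP8 had 16.1 and 26.9 CPM in metamorphosed skin (2 and 201 counts), against 1.55 and 2.45 CPM, with an adjusted p of 0.205. In the fit to the skin libraries alone its adjusted p was 0.00714. AQP9 had 16.1 and 2.94 CPM, against 8.66 and 9.70 CPM, and AQP4 had 16.1 and 0.534 CPM, against 6.14 and 0.283 CPM. The 16.1 CPM of AQP4, AQP8 and AQP9 is in each case 2 counts of the shallow replicate 1, under its floor of 24.2 CPM. The median gene had a log2 fold change of -0.39 in skin.

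Bladder stores water in land-living amphibians. AQP11 had 1.69 and 73.5 CPM in metamorphosed bladder (17 and 1744 counts), against 0.546 and 1.58 CPM in neotenic bladder, a log2 fold change of 5.10 ± 1.32 with an unadjusted p of 4.58e-04 and an adjusted p of 0.243 by edgeR. This rests on 1 library, since the value was 0.63 without metamorphosed bladder 2 and 6.07, past the threshold at an adjusted p of 0.0302, without metamorphosed bladder 1. Over its alternatives the adjusted p ran from 0.00142, by DESeq2, to 1. AQP8 followed the same libraries, with 0.595 and 16.1 CPM against 0.328 and 0.787 CPM and an adjusted p of 0.545. AQP9 had 0.0992 and 2.19 CPM, against 0.764 and 0.866 CPM.

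Kidney had 17.2 and 8.76 CPM of AQP11 in metamorphosed animals, against 19.6 and 21.6 CPM, a log2 fold change of -0.68 ± 1.12 with an adjusted p of 1. AQP4 was at 2.38 and 10.7 CPM (5 and 49 counts), against 0.663 and 0.159 CPM (4 and 1 counts). That difference was 4.02 ± 1.92, with an unadjusted p of 0.0438 and an adjusted p of 1 by edgeR. AQP8 had 3.34 and 3.07 CPM, against 0.331 and 0.952 CPM. AQP9 had 0.953 and 1.75 CPM (2 and 8 counts), against 0.331 and 0.317 CPM (2 counts each), and no fold is given because both neotenic libraries were under 3 counts. For AQP4, AQP8 and AQP9 no kidney library had more than 49 counts.

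In the other 9 tissues none of 36 differences passed. AQP8 in tail had 0.261 and 1.90 CPM, against 1.40 CPM in neotenic tail 1 and 359 CPM in the library labelled neotenic tail 2, a log2 fold change of -7.25 ± 1.98 with an adjusted p of 0.0746 by edgeR. Without that library it was -0.26, and without neotenic tail 1 it was -8.25, past the threshold at 0.0314. In hind limb AQP11 had 4.92 and 120 CPM, against 11.3 and 5.01 CPM, and its difference of 2.94 ± 1.17 (adjusted p of 0.168) was -0.73 without metamorphosed hind limb 2 and 3.88, past the threshold at 0.0454, without metamorphosed hind limb 1. The single metamorphosed fore limb library had 132 CPM of AQP11 and 32.8 CPM of AQP8, against 6.36 and 5.52 CPM and 3.52 and 1.45 CPM in neotenic fore limb. With 1 library no test was made. None of the stomach and tail differences passed without the libraries labelled stomach 2 and tail 2, and 5 of them turned their sign. Liver AQP8 was lower in both metamorphosed libraries, at -2.86 ± 1.56 with an unadjusted p of 0.075, while liver AQP9 differed by 0.13 ± 0.89.

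Averaged over the 12 tissues, the state difference was 1.21 ± 0.48 for AQP4 (adjusted p of 0.074), 0.90 ± 0.34 for AQP11 (0.0609), 0.19 ± 0.45 for AQP8 (0.995) and 0.0036 for AQP9 (1), and none passed edgeR's threshold, against 17.9% of all genes. The first and second had an unadjusted p below 0.05 by edgeR, as 30.2% of all genes did. Both passed with DESeq2, at 0.00689 and 0.0297, as 23.9% of all genes did. Without the libraries labelled stomach 2 and tail 2, AQP4 passed as well, at 1.49 with an adjusted p of 0.0162 and a background of 16.9%. In the fit to all libraries it was higher in 8 of 12 tissues. The mean difference of AQP4 was 2.35 without the neotenic libraries of replicate 1 and 1.57 without those of replicate 2. It was 0.53 without the metamorphosed libraries of replicate 1. Without neotenic replicate 1, neotenic stomach and tail rest on the doubted libraries alone. AQP11 had 1.12 (adjusted p of 0.0133) without the metamorphosed libraries of replicate 1 and -0.077 without those of replicate 2. The test of whether the 12 differences were equal gave an unadjusted p of 0.0044 for AQP8 and 0.00725 for AQP11, with adjusted p of 0.234 and 0.272 by edgeR, so none of 4 passed where 0.0693% of all genes did. DESeq2's likelihood ratio test called these 2, at 0.0026 and 0.00704, and 6.26% of all genes.

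AQP11 exceeded its highest neotenic level, 49.8 CPM, in 5 of 27 metamorphosed libraries: fore limb 1, skin 2, hind limb 2, bladder 2 and intestine 2. The first 4 of these also held AQP8 at 16.1 to 32.8 CPM. Summed marker levels of several internal organs were higher there as well. The summed level of 4 of 8 intestinal epithelium markers that had a gene model (VIL1, CDX1, CDX2 and APOA4) was 401 CPM in fore limb 1, 372 in skin 2, 338 in hind limb 2 and 197 in bladder 2. The other metamorphosed library of the same tissue had 32.2 CPM in skin, 69.1 in hind limb and 25.7 in bladder. In that shallow skin library each of these markers was at 16.1 CPM or less, under the floor of 24.2 CPM. The neotenic libraries of these 4 tissues had sums of 3.34 to 16.1 CPM. CDX1 stood at 43.4 CPM in metamorphosed bladder 2 and at 0 in metamorphosed bladder 1 and neotenic bladder 1. Liver markers (3 of 4 with a model) summed to 2804, 2754, 2661 and 1583 CPM in the same 4 libraries, kidney markers (5 of 6) to 202, 163, 182 and 108 CPM with NPHS1 at 0 in each, and lung surfactant markers (3 of 4) to 269, 292, 256 and 260 CPM. APOB made up 2766, 2720, 2623 and 1564 CPM of those liver sums. Singly, all 4 intestinal and all 3 liver markers were above both neotenic libraries of their tissue in each of the 4 libraries, as were 3 of 5 kidney and 2 of 3 surfactant markers. The kidney marker UMOD was below both in each of them, at 3.58 to 4.89 CPM, and the surfactant transporter ABCA3 was below both in skin 2 and bladder 2. In the other metamorphosed libraries of skin, hind limb and bladder, liver markers summed to 427, 184 and 36.9 CPM. Kidney markers summed there to 24.2, 29.5 and 10.5 CPM and surfactant markers to 298, 41.4 and 30.8 CPM. The kidney sum in skin was LRP2 alone, at the floor of that library. In the neotenic libraries of the 4 tissues the sums were 6.77 to 50.1 CPM for liver, 10.2 to 36.6 CPM for kidney and 19.6 to 50.7 CPM for surfactant.

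In those 4 libraries AQP11 itself, at 73.5 to 132 CPM, was above every intestine library (24.9 to 71.1 CPM), every liver library (15.7 to 37.9 CPM) and every kidney library (8.76 to 21.6 CPM). Their intestinal markers were far below the 3492 to 20640 CPM of the intestine libraries. The part of these markers in the AQP11 and AQP8 differences was not tested.

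**Figure D4:**
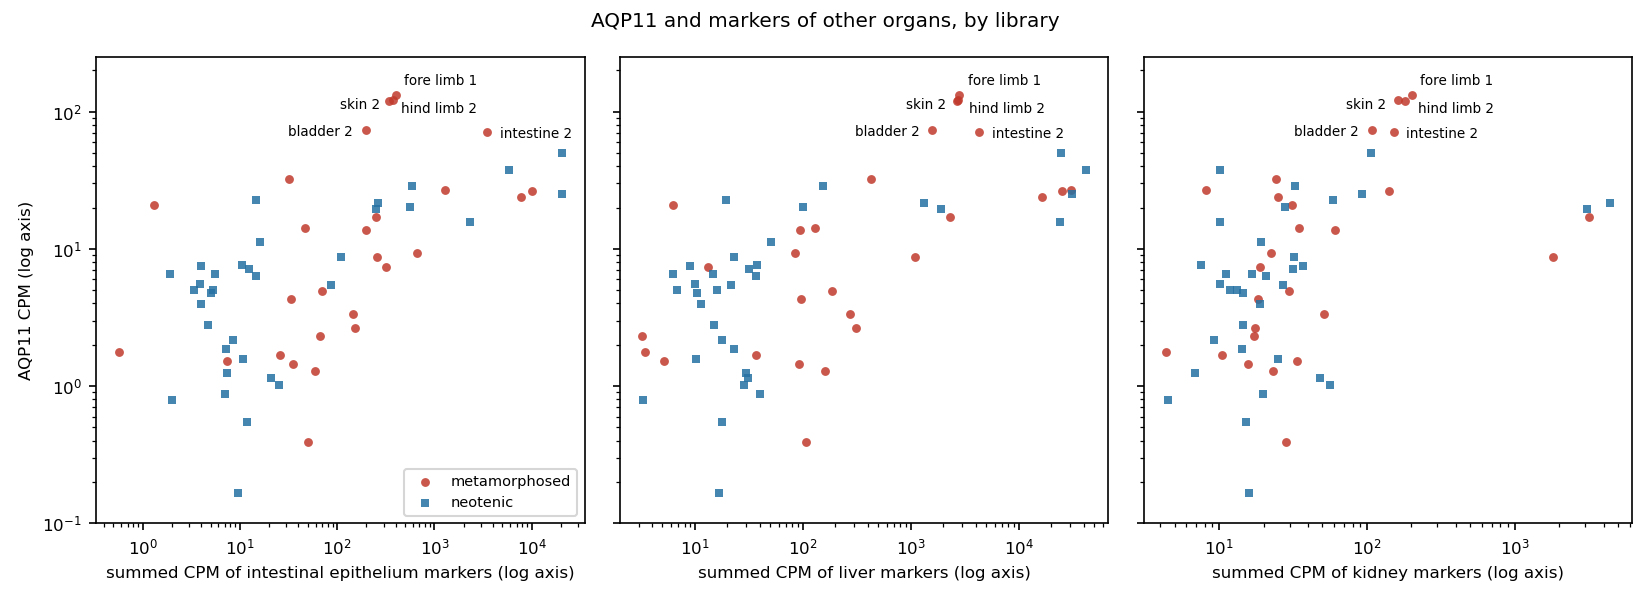
AQP11 level (CPM, log axis) in each of 61 libraries against the summed CPM (log axis) of the intestinal epithelium, liver and kidney markers, with metamorphosed libraries as circles and neotenic libraries as squares. The 5 named metamorphosed libraries lie above all others in AQP11, at 71.1 to 132 CPM, and 4 of them lie at intermediate marker levels, between most libraries and the organ that each marker list names.

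The genes whose pattern was most like each aquaporin were taken by Pearson's r of log2(mean CPM + 1) over the 32 state and tissue groups, as a description across groups that share libraries with the aquaporin. For AQP9 they were F12 (r of 0.964), the clotting factor XII made by hepatocytes, F13B (0.881), the carrier subunit of clotting factor XIII, and cpb2 (0.876), a plasma carboxypeptidase. For AQP11 they were PEPD (0.867), a dipeptidase, tmco1 (0.867), a calcium channel of the endoplasmic reticulum, and TM6SF2 (0.864), a lipid transport protein of liver and intestine. For AQP8 they were POR (0.792), the reductase that serves cytochrome P450 enzymes, NQO1 (0.790), a quinone reductase, and FOXA3 (0.780), a transcription factor of gut and liver. For AQP4 they were MYO6 (0.812), SYT7 (0.811) and MICU3 (0.810), a myosin, a calcium sensor of vesicle release and a mitochondrial calcium regulator. Each of these was highest in metamorphosed brain, a group of 1 library, while AQP4 was highest in neotenic lung. With the libraries labelled stomach 2 and tail 2 left out, r for these 12 pairs ran from 0.775 to 0.962, and that of AQP8 and POR was 0.832.

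Among the aquaporins themselves, r over the same groups ran from -0.43 for AQP4 and AQP11 to 0.37 for AQP8 and AQP11, or from -0.41 to 0.39 without those libraries.

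Water balance also depends on hormones, salt channels and osmolytes, and 16 of 31 such genes had a gene model, all of them tested. Where a symbol had several models (NR3C2, NEDD4L, NFAT5, WNK1, DMD and DTNA), values are those of the most abundant model. No model carried the symbol of vasotocin's mammalian relative AVP or of its receptors, nor of the urea channels SLC14A1 and SLC14A2 or the lens aquaporin MIP. In neotenic bladder 7 of 16 were higher and 0 lower (6.87% of all genes passed there), with all 5 measured genes of the aldosterone and sodium channel axis among them. HSD11B2, the enzyme that shields the mineralocorticoid receptor from glucocorticoids, was higher by 4.71 ± 0.50 (adjusted p of 1.54e-06). SCNN1B and SCNN1G, subunits of the epithelial sodium channel, were higher by 3.98 ± 0.46 and 3.81 ± 0.58. SCNN1B stood at 122.5 and 136.5 CPM in metamorphosed bladder, against 93.6 and 39.7 CPM in neotenic bladder.

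In neotenic kidney 6 of 16 were higher and 0 lower (background 11.6%), SCNN1B by 4.11 ± 0.46, SCNN1G by 4.51 ± 0.55, and WNK4, a kinase that regulates renal salt transport, by 3.07 ± 0.42. In gill 3 were higher (background 10.7%), SCNN1B by 2.68 ± 0.52, SCNN1G by 2.38 ± 0.66 and the kinase STK39 by 1.99 ± 0.59. In skin none passed (background 6.99%), with 3 at an unadjusted p below 0.05 (18.2% of all genes). Without the libraries labelled stomach 2 and tail 2, 5 passed in gill (background 12.9%), with HSD11B2 also higher by 1.79. The taurine transporter SLC6A6 passed there as lower at -4.06, on 1 and 0 counts. It was as scarce in neotenic bladder, with 0 and 1 counts. In skin 2 passed in that fit (background 9.43%), SCNN1B among them as higher by 1.73 (adjusted p of 0.036). Bladder and gill, where no AQP-numbered gene passed as higher, had sodium channel subunits that did. Kidney had them as well, and there AQP11 also passed as higher. Of the 4 proteins of the dystrophin complex that anchors AQP4 in mammals, DMD was higher in neotenic brain by 1.95 ± 0.51, and DAG1 was higher in lung by 1.30 ± 0.22. Between states, none of 16 passed in skin, bladder or kidney (backgrounds 4.89%, 0.00495% and 0%). At an unadjusted p below 0.05 there were 1, 1 and 0, against 23%, 8.06% and 3.09% of all genes. Over 12 tissues 2 of 16 passed, against 17.9% of all genes. SCNN1B was higher in metamorphosed animals by 1.94 ± 0.39 (adjusted p of 6.04e-04) and DTNA, another member of the dystrophin complex, by 1.55 ± 0.34 (0.00136). Without the libraries labelled stomach 2 and tail 2 these were 2.01 and 1.62 (7.11e-04 and 0.00168), and STK39 passed as well, higher by 0.88 (0.0434).

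A gene model labelled only aquaporin (AMEXTC_0340000056990_aquaporin), without a number, falls outside the members and was singled out after its values were seen. It had 235078 counts, more than any of the 4 members, and stood at 1569 and 1015 CPM in metamorphosed bladder, against 2636 and 2439 CPM in neotenic bladder. Both neotenic bladder libraries were above all other neotenic libraries, which had 1.40 to 689 CPM. No test is given for this, since the model was singled out for it. Between states its bladder difference was -0.97 ± 0.90 with an adjusted p of 0.981. It stood at 298 and 932 CPM in metamorphosed skin, against 689 and 269 CPM in neotenic skin, and at 321 and 189 CPM in gill.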

How the data were processed

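The deposited values are raw counts that the authors made for 61 libraries: fragments assigned to the exons of 23251 gene models by featureCounts 1.6.0, without strand, on the AmexG v3.0.0 annotation. The submitters' processing notes also name STAR and DESeq2. The options in the file headers leave out fragments with several alignments, which lowers near-identical copies. The members, the gene lists and the tests were chosen with earlier results of these data known. Counts were scaled by TMM and tested with edgeR 4.0.16 quasi-likelihood fits (filterByExpr, adjusted p below 0.05) in R 4.3.3: all 61 libraries with 1 coefficient per state and tissue (20216 genes), and the 34 neotenic libraries (18982 genes). Standard errors were derived from the F statistic. DESeq2 1.42.0, its size factors, no filter, a replicate block, single-tissue fits and leave-outs were alternatives. The scripts were tested on simulated data. Leave-outs (86 fits) kept the dispersion trend of the full fit. The labels call the replicate number a batch, and the difference between replicates 1 and 2 correlated between states, across genes, with r from -0.381 in cloacal chamber to 0.292 in bladder. Named genes were all members, the fixed water balance and marker lists, and the 3 most alike genes whose symbols are in RefSeq (assembly UKY_AmexF1_1, used for names only). Sequences were not used here. The values of 1 listed gene are not reported here.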

Additional observations from a re-analysis of the deposited data

How the results depend on the processing

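Of 330 alternative values, those that counted aquaporins past the threshold were equal to the first count or within 1.5 times it in 77 cases. They were higher in 21 and lower in 7. The 77 include first counts of 0 that stayed 0. The first count was 0 for all between-state results and for neotenic gill and bladder. DESeq2 called 1 aquaporin in metamorphosed skin, 1 in bladder, 1 over the other 9 tissues, 2 on the mean of 12 tissues and 2 as unequal among tissues, where edgeR called 0. In neotenic tissues it called 2 in gill, 0 in skin, 2 in bladder and 4 in kidney. The fit to the skin libraries alone called 2. Without the libraries labelled neotenic stomach 2 and tail 2, the counts were 1 on the mean, 1 in gill, 1 in bladder, 3 in kidney and 2 in stomach. Leaving out libraries gave 0 to 1 calls in metamorphosed bladder, in the other 9 tissues, on the mean and for unequal differences, 0 to 0 in neotenic skin and in neotenic kidney, 1 to 2 in neotenic brain and 0 to 1 in neotenic stomach. These fits leave some groups with 1 library, which is assumed to vary like the rest.

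The direction turned for AQP8 in neotenic stomach (-1.65 without stomach 1, 6.79 without stomach 2), for AQP8 in neotenic tail (-1.75 without both doubted libraries, -1.82 without tail 2, 6.15 without tail 1), for AQP11 in hind limb between states (-0.73 without metamorphosed hind limb 2, -0.74 without all metamorphosed replicate 2 libraries, 3.88 without metamorphosed hind limb 1) and for the mean of AQP11 (-0.077 without all metamorphosed replicate 2 libraries, 1.12 without those of replicate 1). The cause was not tested. With the replicate number as a block in edgeR, AQP11 in skin had 3.42 (adjusted p of 0.0832). As in the fit without it, 0 aquaporins passed between states in any tissue. The block was 1 term shared by all tissues and both states, so it does not account for tissues that share an animal. By library total alone the highest group mean was 264 CPM for AQP9 and 130 CPM for AQP11. With DESeq2 size factors 1 of 48 signs changed, AQP9 in tail, and the median gene moved by at most 0.18, in eye. DESeq2 itself turned 2 signs, AQP9 in tail and AQP4 in skin (1.07 in place of -1.34), and moved the median gene by 0.43 in skin. The replicate block turned 2, AQP9 in tail and stomach, and no filter 1, AQP9 in stomach, each from a value near 0. With 2 libraries a group at most, and 3 counts worth 24.2 CPM in metamorphosed skin 1, smaller differences were not detectable. The tests of the other 11 neotenic tissues and the values of the unnumbered aquaporin model were added after seeing the data.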
